A study of Mus musculus with 15 samples.

Results

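The methionine cycle and transsulfuration genes described here are Mat1a, Gnmt, Pemt, Ahcy, Bhmt, Bhmt2, Mtr, Cbs and Cth, taken by symbol from a deposited table of 24965 genes from mouse liver. All 9 were found, each on 1 row, and all 9 were among the 13335 genes that the authors tested to the end (those with an adjusted p). The livers came from 15 male C57BL/6J mice, 9 weeks old, homozygous for a floxed allele of Gata4, a zinc finger transcription factor of liver and heart. At 8 weeks of age they were given an adeno-associated virus of serotype 8 (AAV8), either with Cre driven by the hepatocyte promoter Tbg (Gata4LKO, here called knockout), or empty (control), and livers were taken 7 days later. The samples were 4 fasted knockout, 4 fasted control, 3 refed knockout and 4 refed control livers. Fasted mice went without food for 12 h, and refed mice were fasted for 12 h and then given a diet of 69% sucrose and 10% fat for 12 h. The comparison is read here as fasted knockout against fasted control livers, and asks what differed in fasted liver after the Cre virus. Refed control against fasted control livers fitted the deposited values equally well. The reading was chosen by the name of the result, as described with the processing. The floxed allele was common to both groups, and the presence of Cre cannot be told apart from the genotype label, since the control virus was empty. Refed livers entered the authors' model and, under this reading, are not compared here.

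In the methionine cycle, methionine is turned into S-adenosylmethionine, the methyl donor of the cell, and on methyl transfer this becomes S-adenosylhomocysteine and then homocysteine. Homocysteine is either methylated back to methionine, with betaine or methyl folate as donor, or passed through transsulfuration to cysteine, which feeds glutathione and taurine. The liver is the main site of this metabolism, and the betaine route is largely confined to liver and kidney.

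The table gave no values per liver. For each gene it holds the authors' mean normalized count over the libraries (counts divided by size factors), the log2 fold change and its standard error (SE), and the p and adjusted p of a Wald test by DESeq2. Fold changes are given as knockout minus control. The header does not name the groups, and both the comparison and its direction rest on a reading of the table that single-read genes allow, described with the processing. Relative size factors of the 15 libraries, read from the same genes, lay between 0.905 and 1.10. Gata4 RNA did not fall in livers labelled knockout: its log2 fold change was 0.31 ± 0.15 (SE) per the authors' deposited table, with an adjusted p of 0.361 (DESeq2 Wald test). Its mean was 326.9 normalized counts. Which exons are floxed is not stated, and counts taken over a whole gene do not check the loss of some of its exons. The groups are therefore called by their labels.

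Bhmt and Bhmt2, the betaine-homocysteine methyltransferase genes that lie side by side on chromosome 13, were lower in livers labelled knockout. The other 7 genes were not called. Bhmt fell by 0.77 ± 0.20 (SE) and Bhmt2 by 0.39 ± 0.09 (SE) on the log2 scale per the authors' deposited table, which is 41.4% and 23.9% less RNA. A gene was called where its adjusted p was under 0.05 (the DESeq2 Wald test of the authors, adjusted by Benjamini-Hochberg). Of the 9 genes, 2 were called lower and 0 higher. Over all 13335 tested genes 2.19% were called, 1.60% lower and 0.585% higher. Among the 2384 tested genes with a mean of at least 1000 normalized counts, a range that holds 8 of the 9 genes, 3.82% were called and 2.68% were called lower. At an unadjusted p under 0.05 there were 3 of the 9 genes, against 11.4% of all tested genes. The 9 genes had a median log2 fold change of 0.04, and the median over all tested genes was 0.01. In RNA of whole liver, fewer cells of a type and less RNA per cell cannot be told apart.

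**Figure D1:**
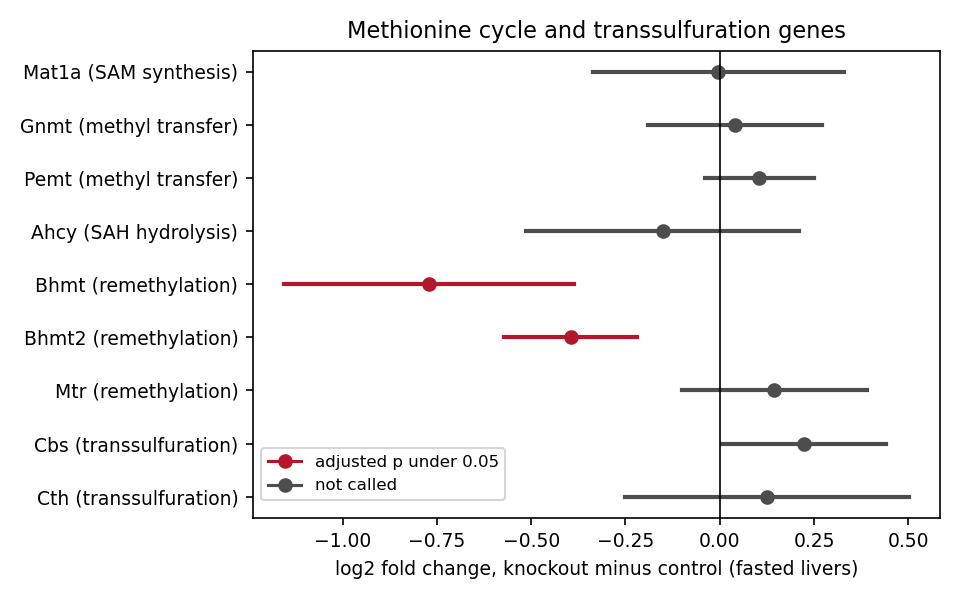
Log2 fold change of each of the 9 genes in fasted livers labelled knockout over fasted control livers (horizontal axis), with the enzyme step in brackets. Points are the authors' estimates and bars are 95% intervals from their SE. Bhmt and Bhmt2 lie left of 0 with their whole intervals, the 7 genes in grey were not called, and the interval of Cbs begins just right of 0.

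The sequences at the start of both called genes are shown because the genes are neighbours that fell together. Each window holds the 250 bases before and the 50 bases after the RefSeq start (GRCm38.p6, the mm10 assembly, minus strand). Capitals mark a match to the motif bound by GATA factors, searched as the letters GATA with A or T before them and A or G after them, on either strand.
Bhmt (chr13:93637709-93638008): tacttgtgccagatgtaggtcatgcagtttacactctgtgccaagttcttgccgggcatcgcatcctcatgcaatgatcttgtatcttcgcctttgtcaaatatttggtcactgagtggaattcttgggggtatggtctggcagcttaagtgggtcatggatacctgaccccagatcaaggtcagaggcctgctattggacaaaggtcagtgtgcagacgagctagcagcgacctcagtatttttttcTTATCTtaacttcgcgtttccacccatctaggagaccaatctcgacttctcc
Bhmt2 (chr13:93674253-93674552): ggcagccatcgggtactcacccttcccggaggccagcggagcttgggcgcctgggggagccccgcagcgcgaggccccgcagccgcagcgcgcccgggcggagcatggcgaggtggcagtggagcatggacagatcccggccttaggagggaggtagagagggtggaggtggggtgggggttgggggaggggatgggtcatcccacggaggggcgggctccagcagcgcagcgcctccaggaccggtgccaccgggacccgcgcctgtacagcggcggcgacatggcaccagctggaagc
The Bhmt window held 1 match, on the opposite strand, beginning 2 bases before the RefSeq start and ending 4 bases into the RefSeq transcript. The GENCODE gene, whose coordinates are given here, begins 203 bases further upstream, so that by GENCODE the match lies inside the gene. The Bhmt2 window held 0. Of all 32851 windows of this length in the RefSeq table, 29.8% held at least 1 match, so a match is common and is a description, not a site. RefSeq windows were matched for 7 of the 9 genes, and Mat1a and Cth were not among them. Gnmt had 1 match, Pemt had 2 in 1 of its 2 windows, and the windows of Ahcy, Cbs and Mtr had 0. The windows of the 2 called genes differed in base composition. Bhmt had 48% G and C with 8 CG pairs, and Bhmt2 had 73.7% with 26, while the median over all windows was 52.7% with 7.

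Methionine is returned from homocysteine by Bhmt, which takes a methyl group from betaine, by Bhmt2, which takes it from S-methylmethionine, and by Mtr, the cobalamin-dependent methionine synthase that takes it from methyl folate. Bhmt (ENSMUSG00000074768, mm10 chromosome 13, 93616675 to 93637961) averaged 52303 normalized counts per the authors' deposited table, the 36th highest of the tested genes. Its log2 fold change was -0.77 ± 0.20 (SE; 95% interval from -1.16 to -0.39), and the adjusted p was 0.00736 (DESeq2 Wald test). The ratio of knockout to control was 0.586, with an interval from 0.449 to 0.765. Ordered by p, it stood 153rd of the tested genes.

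Bhmt2 (ENSMUSG00000042118, chromosome 13, 93655720 to 93674302) was less abundant, at 4898 normalized counts, and its estimate was the more precise of the pair. It changed by -0.39 ± 0.09 (SE; interval from -0.57 to -0.22) per the authors' deposited table, and its adjusted p was 0.00156 (DESeq2 Wald test). The ratio of knockout to control was 0.761, with an interval from 0.673 to 0.860, and by p it stood 100th. The intervals of Bhmt and Bhmt2 overlap, and the difference between their changes was not tested, since the table gives no covariance between genes.

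Mtr (ENSMUSG00000021311, chromosome 13, 12182712 to 12258113), far from the Bhmt pair on the same chromosome, was the rarest of the 9 at 276.0 normalized counts. Its log2 fold change was 0.15 ± 0.12 (SE) per the authors' deposited table, and it was not called (adjusted p 0.765, DESeq2 Wald test). The interval ran from -0.10 to 0.39, so that falls as large as that estimated for Bhmt2 lie outside it. The interval allows a rise of up to 31.0%.

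Mat1a, which encodes the methionine adenosyltransferase of adult liver, makes S-adenosylmethionine. It was the most abundant of the 9, at 98622 normalized counts per the authors' deposited table (ENSMUSG00000037798, chromosome 14, 41105035 to 41124412). Its log2 fold change was -0.0034 ± 0.17 (SE), and its adjusted p was 0.997 (DESeq2 Wald test). The interval ran from 20.8% lower to 25.7% higher, a range that leaves room for moderate changes in either direction.

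Gnmt and Pemt spend S-adenosylmethionine. Gnmt, the glycine N-methyltransferase that disposes of excess methyl groups (ENSMUSG00000002769, chromosome 17, 46725664 to 46729168), averaged 27415 normalized counts, with a log2 fold change of 0.04 ± 0.12 (SE) per the authors' deposited table. Pemt, which methylates phosphatidylethanolamine to phosphatidylcholine (ENSMUSG00000000301, chromosome 11, 59970614 to 60046489), had 2386 normalized counts and 0.10 ± 0.07 (SE). Neither was called, with adjusted p of 0.957 and 0.659 by the DESeq2 Wald test. Their intervals ended at 12.4% lower and 20.7% higher for Gnmt, and at 2.67% lower and 18.8% higher for Pemt. Pemt had the narrowest interval of the 9.

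Ahcy encodes the hydrolase that splits S-adenosylhomocysteine into adenosine and homocysteine (ENSMUSG00000027597, chromosome 2, 155059310 to 155074497). It averaged 9113 normalized counts, with a log2 fold change of -0.15 ± 0.18 (SE) per the authors' deposited table, and did not reach a call (adjusted p 0.866, DESeq2 Wald test). The interval ran from 29.9% lower to 15.7% higher. Ahcy also shares more sequence with other genes than any other of the 9, as described with the copies.

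Cbs and Cth take homocysteine to cysteine in transsulfuration, through cystathionine. Cbs, the cystathionine beta-synthase (ENSMUSG00000024039, chromosome 17, 31608894 to 31637238), averaged 5676 normalized counts, with a log2 fold change of 0.22 ± 0.11 (SE) per the authors' deposited table. Its unadjusted p was 0.0447 and its adjusted p 0.420 (DESeq2 Wald test), so that it was not called. Cth, the cystathionine gamma-lyase (ENSMUSG00000028179, chromosome 3, 157894248 to 157925077), had 8288 normalized counts, 0.12 ± 0.19 (SE) and an adjusted p of 0.907 by the same test per the authors' deposited table. The interval of Cth was the wider, from 16.1% lower to 41.5% higher, against 0.366% to 35.8% higher for Cbs. Falls of the size estimated for Bhmt lie outside both intervals.

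**Figure D2:**
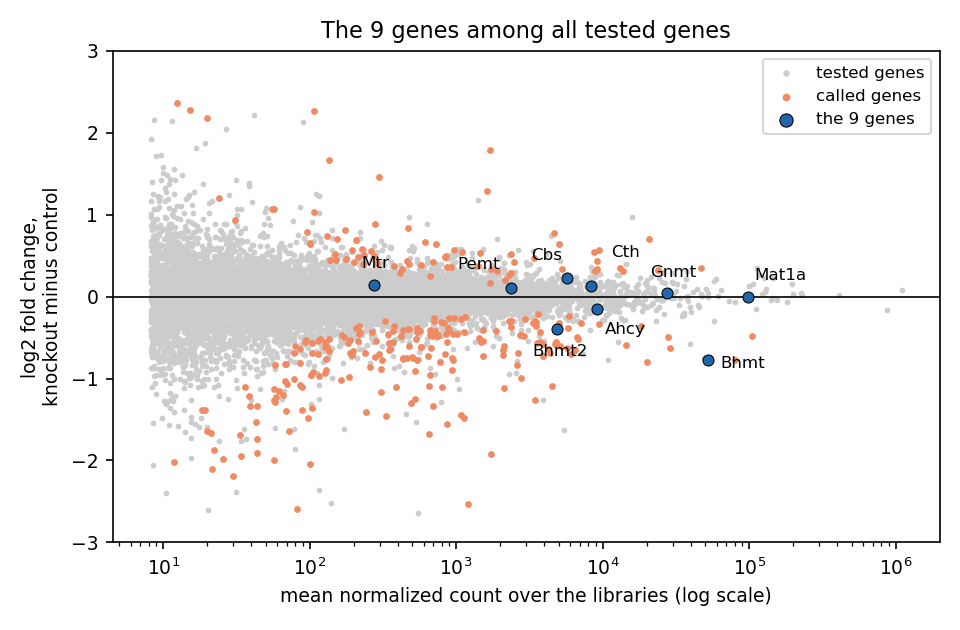
Mean normalized count over the libraries (horizontal axis, log scale) and log2 fold change of livers labelled knockout over control (vertical axis) of all 13335 tested genes in grey, called genes in orange and the 9 genes in blue. Bhmt stands below the cloud among the most abundant genes, and Bhmt2 lies at its lower edge. The vertical axis ends at 3 in both directions, which leaves 11 genes outside.

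Levels were set per length, as mean normalized counts per 1000 bases of annotated exon. The exons of all annotated transcripts of a gene were joined. The length was 5758 bases for Bhmt and 7485 for Cbs, against 2467 for Bhmt2 and 1206 for Gnmt. A gene whose RNA uses only some of these exons is set too low, so ratios and order depend on this length. These are means over all libraries, fasted and refed, knockout and control. The table gives no spread for them, so neighbours in the order cannot be separated. Mat1a stood highest at 28438, followed by Gnmt at 22732 and Bhmt at 9083. Ahcy at 3249, Cth at 2970, Bhmt2 at 1985, Pemt at 1134 and Cbs at 758.3 came next, and Mtr was last at 32.4. By level per length, Bhmt stood 4.58 times above Bhmt2 and 281 times above Mtr. By this measure Bhmt was the most abundant of the 3 remethylation genes.

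The SE of each gene carries both the spread between livers and the counting error, and the counting part was taken off here; it was 24.2% of the variance for Mtr, the rarest gene, and at most 8.08% for the other 8. With 4 livers on each side and the negative binomial model of DESeq2, the deposited SE gives a coefficient of variation for each gene. It was 19.2% for Bhmt and 8.71% for Bhmt2. These are values of the model, which refed livers also entered, and not a spread measured among the fasted livers. Over the 9 genes this value ran from 6.90% for Pemt to 19.2% for Bhmt, with Cth at 18.8%, Ahcy at 18.0% and Mat1a at 16.7%. Bhmt was thus called with the largest such value of the 9. Its SE was above that of 89.1% of the 55 tested genes with a mean within 2-fold of its own, and the SE of Bhmt2 was above that of 56.0% of 736 such genes. For Ahcy and Cth the shares were 90.4% and 91.0%.

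Around Bhmt and Bhmt2, 6 other annotated genes lie within 100 kb, of which 5 are in the deposited table and 3 were tested. The pair is separated by 17.8 kb and read from the same strand. On the other side, Dmgdh, the dimethylglycine dehydrogenase that breaks down the product of the Bhmt reaction, begins 130 bases from the start of Bhmt2 and is read in the opposite direction. The 300 base windows at the starts of Bhmt2 and Dmgdh have 233 bases in common. Dmgdh, at 12066 normalized counts, had a log2 fold change of -0.17 ± 0.10 (SE) per the authors' deposited table, and did not reach a call (adjusted p 0.565, DESeq2 Wald test). Its interval, from -0.38 to 0.03, overlaps that of Bhmt2, so that a difference between the genes on either side of this start region is not shown.

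Arsb, the lysosomal arylsulfatase B (ENSMUSG00000042082, chromosome 13, 93771630 to 93943016), begins 97.3 kb from the start of Bhmt2, past Dmgdh, and was also called lower. It had 430.7 normalized counts and changed by -0.76 ± 0.21 (SE) per the authors' deposited table, and its adjusted p was 0.0238 (DESeq2 Wald test). Gm15622, an antisense RNA inside Bhmt with 70.0 normalized counts, had a log2 fold change of -0.43 ± 0.52 (SE) per the authors' deposited table, and did not reach a call. The strand setting of the counting is not given in the sources used here, so reads of Bhmt and Gm15622 may not be fully separated. Of the 3 tested neighbours 1 was called, Arsb, and the region was chosen with the fall of Bhmt and Bhmt2 known.

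**Figure D3:**
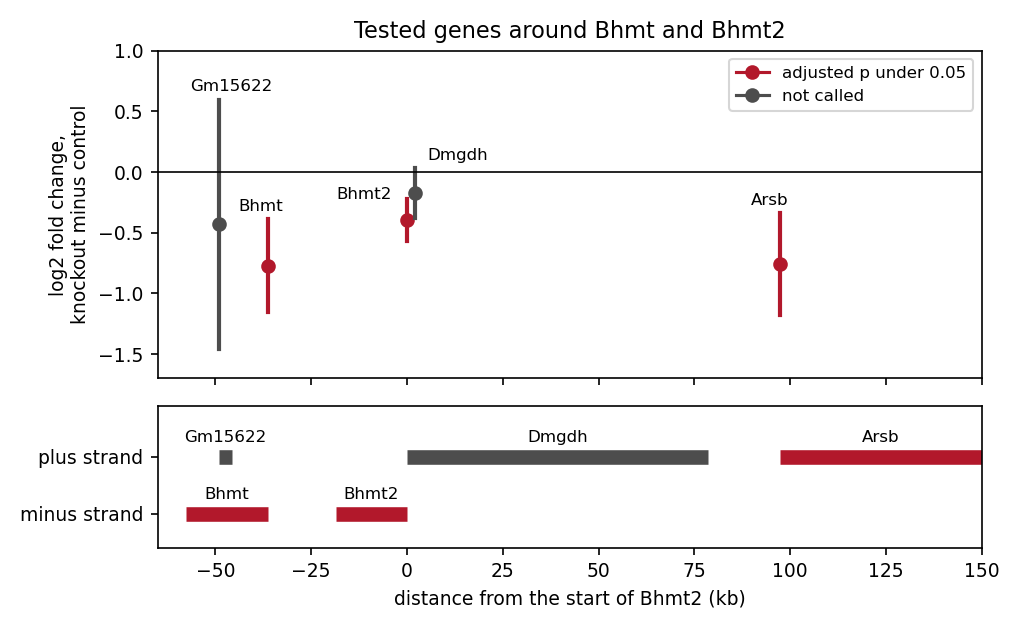
Tested genes within 100 kb of Bhmt and Bhmt2, by distance from the start of Bhmt2 in kb (horizontal axis). The upper panel gives the log2 fold change of livers labelled knockout over control at each gene's start, with 95% intervals, and the lower panel the extent and strand of each gene; Arsb continues past the right edge. Bhmt, Bhmt2 and Arsb, in red, were called lower, and Dmgdh, drawn slightly to the right of its start so that both bars can be seen, was not.

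Some of the 9 genes have near copies that can exchange reads with them. This was measured as stretches of 50 bases found in the transcripts of another gene (GENCODE M21). Bhmt shared 26.1% of its stretches with any other gene, mainly with Gm5096 on chromosome 18 (24.1%) and with the processed pseudogene Bhmt-ps1 on chromosome 4 (13.5%). With Bhmt2 it shared 0.174%, so little of the sequence of these neighbours is common. Gm5096 was also called lower, at -0.85 ± 0.21 (SE), and an adjusted p of 0.00649 (DESeq2 Wald test) per the authors' deposited table. Bhmt-ps1 had -1.09 ± 0.35 (SE) per the authors' deposited table but did not pass (adjusted p 0.0691, DESeq2 Wald test). Their means, 259.5 and 18.5 normalized counts, were 0.496% and 0.0354% of that of Bhmt. Of the stretches of Gm5096, 76.4% are also in Bhmt, and whether its reads came from its own transcript cannot be told apart from misplaced Bhmt reads in this table.

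Ahcy shared 68.7% of its stretches, 66.0% with Gm4737 on chromosome 16. Gm4737 had 3674 normalized counts, 40.3% of the mean of Ahcy, and a log2 fold change of 0.34 ± 0.40 (SE) per the authors' deposited table. It was not called (adjusted p 0.858, DESeq2 Wald test). The value of Ahcy is uncertain to the extent that reads were split between the pair. Bhmt2 shared 6.32%, Cbs 1.25% and Pemt 0.0896%, and Mat1a, Gnmt, Cth and Mtr shared 0%. Ahcy, Gnmt and Cth also overlap other annotated genes, Gm45609 and Gm26904 on the opposite strand and Gm43314 on the strand of Cth, with means of 24.5, 0.659 and 221.5 normalized counts.

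The reactions that join these 9 genes were looked at in 9 lists of linked pathways. By the authors' DESeq2 Wald test, 7 of the 9 lists had 0 called genes, and the other lists, of glutathione and of cobalamin genes, had 1 each. Over the 9 lists 2 of 99 tested genes were called (2.02%), against 2.19% of all tested genes, and 9 had an unadjusted p under 0.05 (9.09%), against 11.4%. The partners of the cycle (Mat2a, Mat2b, Ahcyl1, Ahcyl2, Mtrr and Adk) had 0 of 6 called and 0 at an unadjusted p under 0.05, with a median log2 fold change of -0.03. The smallest p values there belonged to Mat2b, the regulatory subunit of the other methionine adenosyltransferase, at -0.07 ± 0.08 (SE), and to Mtrr, which reactivates methionine synthase, at -0.11 ± 0.15 (SE), per the authors' deposited table.

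Betaine, the methyl donor of Bhmt, is made from choline. Mitochondrial and peroxisomal enzymes then break down the product of the Bhmt reaction. In the list of choline and betaine oxidation 0 of 5 tested genes were called and 0 had an unadjusted p under 0.05 (DESeq2 Wald test), and the median was 0.06. Aldh7a1, which can oxidize betaine aldehyde, stood at 0.09 ± 0.05 (SE) per the authors' deposited table. All 5 genes of the list are abundant, with means between 4140 and 13807 normalized counts, and SE between 0.05 and 0.11.

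In the folate list, which supplies the methyl group for Mtr, 0 of 21 tested genes were called and 3 had an unadjusted p under 0.05 by the DESeq2 Wald test, with a median of 0.04. Ggh, a hydrolase of folate polyglutamates, stood at 0.36 ± 0.15 (SE), and Mthfd1l, of mitochondrial formate production, at 0.81 ± 0.41 (SE) with only 14.3 normalized counts, per the authors' deposited table. Cobalamin handling had 1 called lower and 0 higher of 10 tested, with 1 at an unadjusted p under 0.05 and a median of 0.09. That gene was Mmab, which makes adenosylcobalamin for methylmalonyl-CoA mutase and not the methylcobalamin used by Mtr, at -0.49 ± 0.12 (SE) and an adjusted p of 0.00822 (DESeq2 Wald test) per the authors' deposited table.

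Among methyltransferases that compete for S-adenosylmethionine in liver, 0 of 10 tested were called and 0 had an unadjusted p under 0.05 (DESeq2 Wald test), with a median of -0.03. Gamt, which makes creatine, stood at -0.27 ± 0.14 (SE) per the authors' deposited table. Phosphatidylcholine synthesis, the other use of choline, had 0 of 12 called and 0 at an unadjusted p under 0.05, with a median of 0.08. Its genes of smallest p were Chpt1, of the last step from choline, at 0.23 ± 0.14 (SE), and Selenoi, of the ethanolamine branch, at -0.14 ± 0.10 (SE), per the authors' deposited table.

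Downstream of cysteine, the glutathione list had 1 called higher, 0 lower and 10 not called of 11 tested, with 3 at an unadjusted p under 0.05 and a median of 0.16. The called gene was Gsr, the glutathione reductase, which recycles glutathione and does not make it, at 0.32 ± 0.08 (SE) and an adjusted p of 0.0106 (DESeq2 Wald test) per the authors' deposited table. Gclc, the catalytic subunit of the enzyme that begins glutathione synthesis, was named after its value was seen: it stood at 0.64 ± 0.21 (SE) per the authors' deposited table, short of the threshold at an adjusted p of 0.0691 (DESeq2 Wald test).

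Cysteine, taurine and sulfide genes had 0 of 12 called and 2 at an unadjusted p under 0.05 (DESeq2 Wald test), with a median of 0.02. These 2 were Got2, the mitochondrial aspartate aminotransferase, at -0.18 ± 0.06 (SE; adjusted p 0.0615), and Kyat3, an aminotransferase that can also act on cysteine conjugates, at 0.43 ± 0.15 (SE; adjusted p 0.107), per the authors' deposited table. With fold changes centred on the median of all tested genes Got2 passed, with 1 gene of the list called lower. Methionine salvage and polyamine genes had 0 of 12 called and 0 at an unadjusted p under 0.05, with a median of 0.07. Enoph1 and Azin1, of methionine salvage and of polyamine control, stood at 0.29 ± 0.17 and -0.14 ± 0.09 (SE) per the authors' deposited table.

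**Figure D4:**
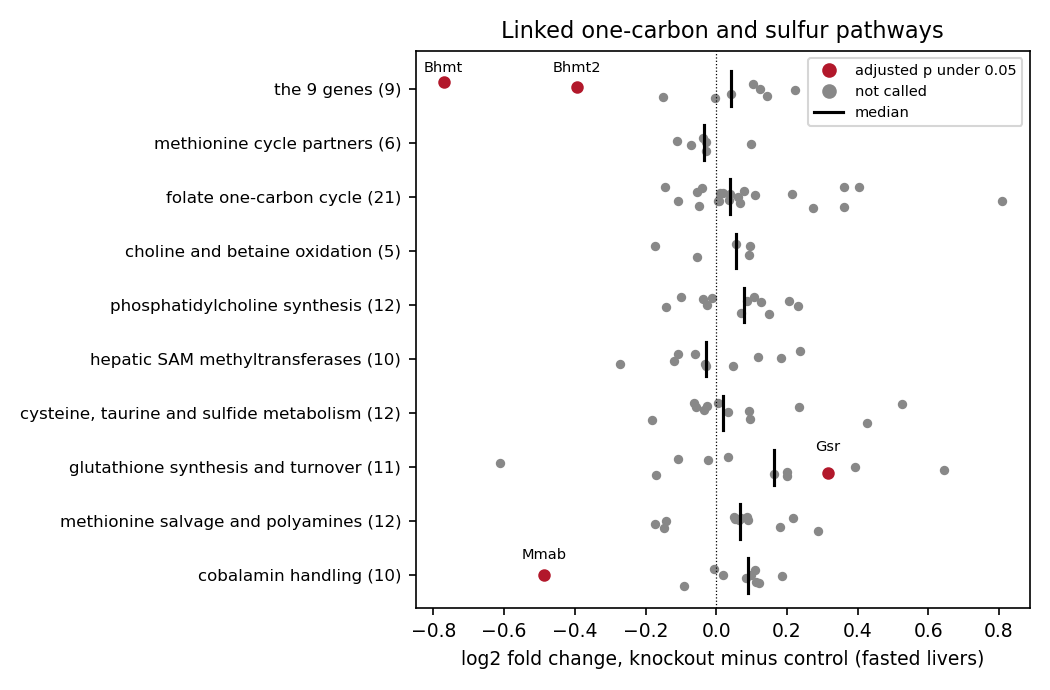
Log2 fold change of livers labelled knockout over control (horizontal axis) for each tested gene of the 9 genes and of the 9 linked pathways, with the number tested in brackets. Points are genes, red where called, and black bars are medians. Bhmt, Bhmt2 and Mmab are the called genes left of 0 and Gsr is the one to the right, while the pathway medians lie between -0.03 and 0.16.

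Whole liver RNA holds transcripts of several cell types. Of 8 hepatocyte markers, the cell type in which the methionine cycle is most active, 0 were called and 1 had an unadjusted p under 0.05 by the DESeq2 Wald test, with a median log2 fold change of 0.08 and estimates between -0.07 and 0.22. Of 11 Kupffer cell markers 0 were called and 1 had an unadjusted p under 0.05, with a median of -0.27 and 11 negative estimates. Endothelial, stellate and cholangiocyte markers had 0 called of 9, 9 and 4 tested, with 3, 0 and 0 at an unadjusted p under 0.05 and medians of 0.20, 0.03 and 0.05. Their positive estimates numbered 5, 6 and 2, and their negative ones 4, 3 and 2. The endothelial estimates ran from -0.71 to 0.29. Of 7 kidney and pancreas markers 1 is in the table, Cela1, which was not called. The part of any cell type in the values of Bhmt and Bhmt2 was not tested, as the table holds no levels per liver.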

How the data were processed

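RNA of 15 livers was sequenced. Per the labels' protocols, RNA was isolated with TRIzol and RNeasy and made into stranded KAPA libraries. The submitters' processing notes name mm10, STAR 2.6.0c, FastQC and DESeq2. How reads were counted, on which strand and with which annotation is not given in the sources used here. Per the file headers, the deposited table holds a mean expression signal (counts divided by size factors), a log2 fold change and its SE, a Wald score, and p-values and adjusted p-values. The deposited adjustment is that of Benjamini-Hochberg over 13335 genes, the rarest with a mean of 8.20. Nothing was refitted, and missing adjusted p stayed missing.

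The groups compared were read from genes with 1 read in 1 library. Their fold changes and SE were set against 16 readings of the table (interaction or additive model, each group as baseline, effect of genotype or of feeding). Only 2 came within 1e-06, namely fasted knockout minus fasted control, and refed control minus fasted control. The closest other readings, at 4.37e-05, were these 2 with the sign reversed, so the direction of every fold change rests on that mismatch. With the sign reversed, Gata4 would be lower, and Bhmt and Bhmt2 higher. Single reads cannot separate the 2 readings within 1e-06. The first was taken because the result is named for genotype, and under the second every value here would describe feeding. Pck1, which feeding is known to control, was not called, at 0.01 ± 0.82 (SE) per the authors' deposited table, and was chosen after its value was seen. The interval of Pck1 ran from -1.59 to 1.61, so that larger changes in either direction lie outside it. How far feeding moves Pck1 in these livers is not known here, and whether this gene separates the 2 readings was not tested.

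Intervals are 95% normal intervals from the deposited SE, which carries the modelled spread between samples and the counting error. Titles within a group share a number of unstated meaning, so a shared cage or day cannot be told apart from the group. The coefficient of variation was taken as the square root of the dispersion, which was solved from the squared SE for equal groups. The mean used there is over all libraries, fasted and refed. Exon lengths and shared sequence are from GENCODE M21. Named genes were the 9 members, Gata4, the called genes of each pathway list or else its 2 of smallest p, and tested genes within 100 kb of Bhmt or Bhmt2, of which 1 is not reported here; near copies, Gclc and Mvk were added after their values were seen. The members and lists were chosen with earlier results of these data known. Alternatives were other sets of genes for the adjustment, other thresholds and centring. The code was tested on simulated data. Computation used Python 3.11.15 and scipy 1.17.1.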

Additional observations from a re-analysis of the deposited data

How the results depend on the processing

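Bhmt and Bhmt2 were called lower under all 8 alternatives, with adjusted p between 0.00609 and 0.0138 for Bhmt and between 0.00115 and 0.00292 for Bhmt2 (Wald test on the authors' DESeq2 estimates). The other 7 of the 9 genes were called under none of them. Only the 2 centrings changed fold changes, and under them the direction of none of the 9 reversed. All 8 reuse the deposited estimates and SE, so they do not check the counting or the model, and the threshold of 0.1 could only keep calls. Symbols did not repeat among the 9, so the choice of row changed nothing. At an adjusted p under 0.01, Arsb and Gsr no longer passed, all calls numbered 167 against 292, and the glutathione list had 0; at 0.1 the glutathione list had 2 and the cysteine, taurine and sulfide list 1. Centring on the median of all tested genes, or within 20 bins of mean, also gave 1 in that cysteine list. No paired analysis was possible because the table holds no values per sample, and no liver could be left out. At 4 livers a group the intervals of the 7 uncalled genes leave room for changes up to those given with each gene. The choice between the 2 readings of the table decides which comparison every value describes.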

Other observations

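Mmab, the called gene of the cobalamin list, begins 208 bases from Mvk, the mevalonate kinase gene of cholesterol synthesis, on chromosome 5, and the genes are read in opposite directions. Mvk was also called lower, at -0.70 ± 0.15 (SE) and an adjusted p of 0.000595 (DESeq2 Wald test), per the authors' deposited table, a gene looked up after the value of Mmab was seen. Mmab and Mvk thus begin close together and both were called lower. Of Bhmt2 and Dmgdh, which also begin close together, only Bhmt2 was called. Dmgdh had a negative estimate as well, and its interval overlaps that of Bhmt2. Differences within and between these pairs were not tested.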
